A study of Homo sapiens with 34 samples.

Results

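The neighbourhood of the homeobox genes PDX1 and CDX2 on chromosome band 13q12 was described with 6 genes, PDX1, CDX2, GSX1, URAD, FLT3 and PAN3, of 19974 protein-coding genes on the autosomes and X. Members were chosen by position on chromosome 13 (hg38), with earlier results of these data known. Tests between the lines here are therefore not of a locus chosen independently of the data. A peak was counted for a gene when it overlapped the gene or the 2 kb on either side. Of 1034303 peaks in 34 lists, 116 met a member gene in this way and 601 lay in a surrounding window of 500 kb, from 220.0 kb before to 280.0 kb after the annotated start of PDX1. The study profiled chromatin by CUT&Tag, in which an antibody tethers a transposase to marked nucleosomes. The antibody is labelled anti-H3K9me, with no degree of methylation given. The lists hold no expression values, so the identity of the cells was not checked against marker genes. All tests were two-sided.

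The cells were COLO320 DM, from a colorectal adenocarcinoma, and PC3 DM, from a prostatic adenocarcinoma. Both are established lines known to carry the oncogene MYC on extrachromosomal DNA, and the protocol speaks of lines derived from them. Each library used 50000 nuclei, collected 3 days after cells received 700 ng of sgRNA plasmid. The COLO320 DM libraries numbered 18, with 3 each for ecSE1, ecSE2, ecSE3, ecSE4, ecSEcombo and the vector. The PC3 DM libraries numbered 16, with 3 each for ecSE1, ecSE2, ecSE6 and ecSEcombo and 2 each for ecSE7 and the vector. All groups, the vector included, were transfected. The labels give neither a genome position for any element nor what ecSEcombo combines, and the protein that the sgRNAs guide is not named in them. The labels do not tie replicates to separate cultures. The p-values therefore speak of library-to-library spread, possibly of technical origin. A peak list pools the cells of a well, so fewer marked cells and less mark per cell cannot be told apart.

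PDX1, CDX2 and GSX1 form the human ParaHox cluster, a sister group of the HOX clusters. PDX1 directs development of the pancreas and duodenum and keeps insulin-producing cells differentiated, CDX2 sets and maintains intestinal identity and is a standard marker of colorectal tumours, and GSX1 acts in the developing brain. PLUT, a long non-coding RNA gene beside PDX1, is known from human islets as a regulator of PDX1. Methylation of lysine 9 on histone H3 is best known, in its higher degrees, from silent heterochromatin.

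The promoters of URAD, CDX2 and PLUT lie within the bounds of the dense run of COLO320 DM peaks described from here on. The run is sparse around CDX2. No peak of any of the 34 lists overlapped them, which was so for every promoter sequence available in the window and does not set them apart. How many promoters of the genome lacked a peak in this way was not counted. Each runs from 250 bases before to 50 after an annotated start (RefSeq, GRCh38.p14), is written 5′ to 3′ on the minus strand, and has each CG dinucleotide in capitals.
URAD promoter, chr13:27978615-27978914: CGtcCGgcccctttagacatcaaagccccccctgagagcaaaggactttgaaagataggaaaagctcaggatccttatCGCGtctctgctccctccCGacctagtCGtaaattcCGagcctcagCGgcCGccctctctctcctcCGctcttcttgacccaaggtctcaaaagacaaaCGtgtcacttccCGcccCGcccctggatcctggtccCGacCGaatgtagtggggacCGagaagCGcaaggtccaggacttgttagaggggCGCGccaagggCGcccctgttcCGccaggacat
CDX2 promoter, chr13:27969266-27969565: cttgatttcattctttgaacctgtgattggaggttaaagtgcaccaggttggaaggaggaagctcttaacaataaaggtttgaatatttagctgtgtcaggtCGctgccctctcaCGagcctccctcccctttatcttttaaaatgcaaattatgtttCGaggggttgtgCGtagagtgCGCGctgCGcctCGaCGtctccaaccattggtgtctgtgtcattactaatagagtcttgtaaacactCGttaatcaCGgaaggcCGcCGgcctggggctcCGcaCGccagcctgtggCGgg
PLUT promoter, chr13:27917242-27917541: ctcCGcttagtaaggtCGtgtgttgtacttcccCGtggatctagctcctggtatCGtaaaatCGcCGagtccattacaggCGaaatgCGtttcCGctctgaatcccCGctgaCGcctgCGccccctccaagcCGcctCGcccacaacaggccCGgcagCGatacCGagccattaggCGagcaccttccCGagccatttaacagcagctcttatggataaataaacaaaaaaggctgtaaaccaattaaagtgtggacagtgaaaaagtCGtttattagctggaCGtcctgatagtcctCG
The URAD promoter held 21 CG, the PLUT promoter 22 and the CDX2 promoter 16, where the median of 35116 promoters of the same length was 14. Among the others in the run, equally without a peak, the promoter of LOC124903139 held 22 and that of LINC00543, with 8, fell below the median. The second annotated URAD promoter, beyond the run, held 9. CG reads the same on both strands, and 96.0% of the 35116 promoters held at least 1. At least as many CG as in the printed URAD, PLUT and CDX2 promoters were held by 39.5%, 37.7% and 47.5% of the 35116, in that order. The nearest COLO320 DM peak was 495 to 998 bp from this URAD promoter, with a median of 620 bp over 18 libraries. It was 446 to 10400 bp from the PLUT promoter, with a median of 1011 bp. From the CDX2 promoter it was 1963 to 10347 bp, with a median of 9876.5 bp, so most libraries had no peak close to it. The promoters of GSX1, FLT3 and PAN3 and this second promoter of URAD were not overlapped by a peak of any list either. Of the 6 members, 5 had a promoter sequence to compare. PDX1 was the member without.

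Lists held 9385 to 125214 peaks in COLO320 DM, with a median of 18271, and 10288 to 102290 in PC3 DM, with a median of 26527. The longest were COLO320 DM ecSE1 replicate 2 and PC3 DM ecSEcombo replicate 1. The lowest local background of a list, in fragments, was 0.501 to 0.872 in COLO320 DM and 0.164 to 0.405 in PC3 DM. This background is what MACS2 estimated around each peak, from the same library or from a control library, which the sources do not say. It was recovered here, together with the number of fragments at the summit, from the authors' fold and p-value, and is not scaled for depth, which is unknown.

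**Figure D1:**
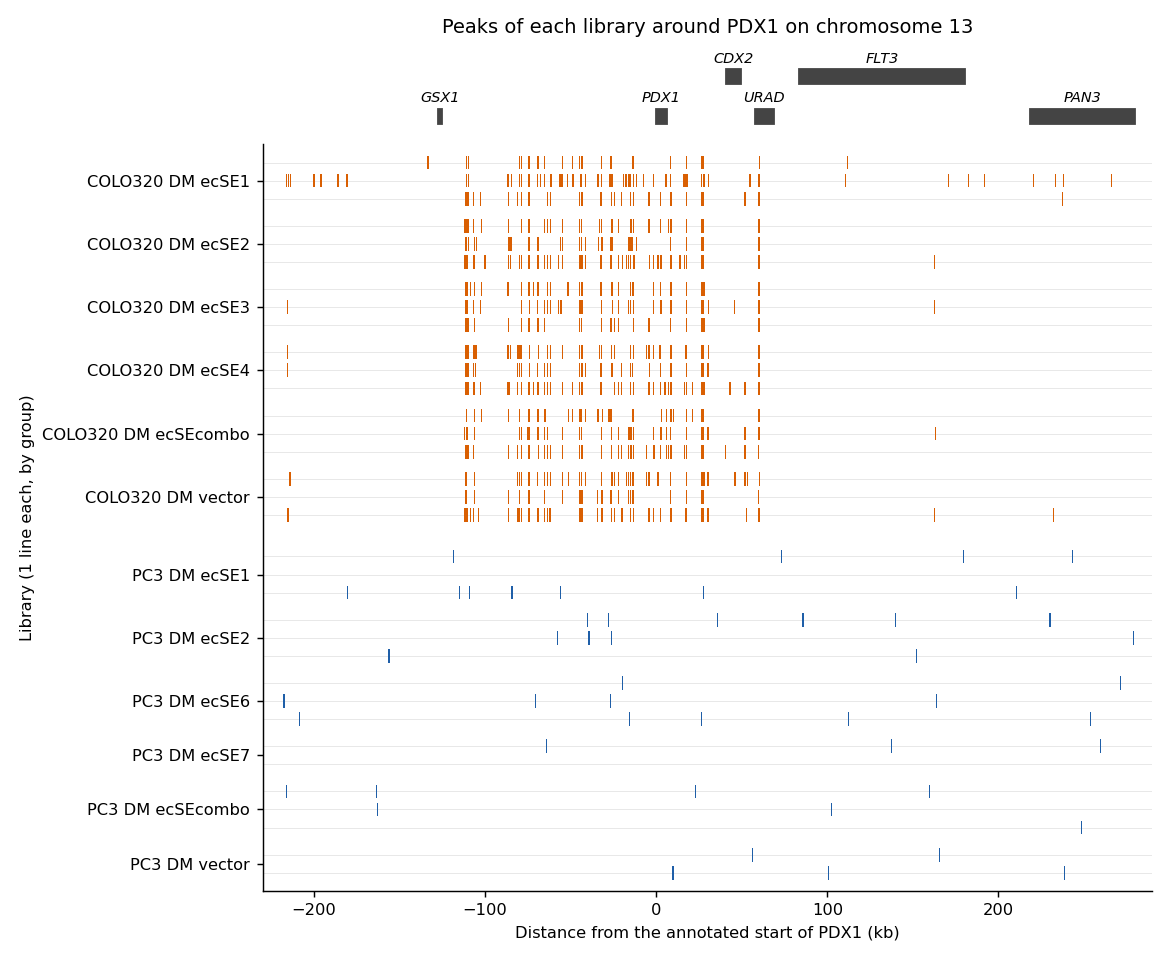
Peaks of the 34 libraries against distance from the annotated start of PDX1 in kb, 1 line per library, COLO320 DM above (orange) and PC3 DM below (blue), with the member genes as bars on top. The 18 COLO320 DM libraries have 18 to 46 peaks each between 27807851 and 27980476, and the 16 PC3 DM libraries 0 to 4.

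The COLO320 DM libraries carried a dense run of peaks over this neighbourhood, and the PC3 DM libraries almost none. COLO320 DM lists had 19 to 62 peaks in the window, with a median of 29, and PC3 DM lists 0 to 7, with a median of 3. As a share of each list this was 0.149% ± 0.0441 in COLO320 DM (SD, n = 18) and 0.00872% ± 0.00557 in PC3 DM (SD, n = 16). The lowest COLO320 DM share, 0.0495%, lay above the highest PC3 DM share, 0.0203%. The difference was 0.140 points (permutation test with 100000 resamples, p = 1e-05, the smallest they can give, and adjusted p = 7.00e-05 over 7 tests of this share). It was 0.145 points without the lists of over 100000 peaks. With the vector libraries alone, the difference was 0.187 points (exact permutation p = 0.1, the smallest that 3 libraries against 2 can give). Peaks covered 17201 ± 4097 bp of the window in COLO320 DM and 779 ± 476 bp in PC3 DM. Among all windows of 500 kb, ordered by number of peaks, this window ranked from 5 to 18 in COLO320 DM lists and from 1608 to 5317 in PC3 DM lists.

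PDX1 (gene ID 3651, chr13:27920000-27926313) met a peak in 18 of 18 libraries of COLO320 DM, against 0 of 16 of PC3 DM (adjusted p = 2.28e-06 over 10067 genes, Fisher's exact test with Benjamini-Hochberg adjustment). Over all genes tested, 1.25% were called with peaks in more COLO320 DM libraries and 5.74% with peaks in more PC3 DM libraries. The COLO320 DM lists had 1 to 6 peaks at PDX1, with a median of 3, covering 373 to 2454 bp, with a median of 1059 bp. No PC3 DM list covered any of it. The tallest COLO320 DM summit held 140 to 330 fragments, with a median of 277, over a local background of 64.6 to 136 fragments. The authors' fold of these tallest peaks was 1.96 to 3.15, below the median fold of their own lists, which was 5.19 to 5.87. Over a high background a peak passes a given q-value at a lower fold, so these folds are not directly comparable.

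The most recurrent PDX1 signal lay just beyond the gene, at its higher coordinates. The only recurrent site of the PDX1 region found in all 18 COLO320 DM lists, chr13:27927790-27929322, starts beyond the annotated gene end and overlaps the 2 kb flank. Within the gene, a site at 27921933 to 27922794 was found in 12 COLO320 DM libraries and a site at 27925797 to 27926022 in 4. A site at 27917998 to 27918309, in the other flank, was found in 9, and a site at 27926727 to 27926933 in 3. Without the flanks, the share of libraries with a peak at PDX1 was 77.8 points higher in COLO320 DM than in PC3 DM (Fisher's exact test, adjusted p = 0.000835). The gene thus had a peak in every COLO320 DM library only with its flanks.

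CDX2 (gene ID 1045, chr13:27960918-27969315) was mostly free of peaks. Peaks met it in 4 of 18 libraries of COLO320 DM, against 0 of 16 of PC3 DM (adjusted p = 0.260, Fisher's exact test). The 4 peaks had summits of 46 to 75 fragments over local backgrounds of 15.6 to 28.5 fragments. They did not share a site. The peaks of ecSE3 replicate 2 (27965622 to 27965929) and vector replicate 1 (27965642 to 27965864) overlapped, whereas those of ecSE4 replicate 3 (27962780 to 27963056) and ecSEcombo replicate 3 (27960366 to 27960635) lay apart from these, the last of them in the flank.

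GSX1 (gene ID 219409, chr13:27792483-27794768) had no peak in any of the 34 libraries and entered no test. Its upper end lies 13083 bp before the first peak of the dense run.

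URAD (gene ID 646625, chr13:27977717-27988693), named for a decarboxylase of urate breakdown, met a peak in 18 of 18 libraries of COLO320 DM, against 1 of 16 of PC3 DM (adjusted p = 1.08e-05, Fisher's exact test). Each COLO320 DM list had 1 peak here, and all lay at the same site, from 27979409 at the earliest start to 27980486 at the latest end. The most frequent start, 27979534, was shared by 7 lists and the most frequent end, 27980428, by 5. Summits held 28 to 73 fragments, with a median of 46.5, over local backgrounds of 5.22 to 11.8. The fold of 3.62 to 7.28 was higher than at PDX1 in every COLO320 DM library, over a lower local background. The PC3 DM peak, in vector replicate 1, lay elsewhere (27976150 to 27976535) and had a summit of 6 fragments.

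FLT3 (gene ID 2322, chr13:28003274-28100576), a receptor tyrosine kinase of blood progenitors, met a peak in 6 of 18 libraries of COLO320 DM, against 10 of 16 of PC3 DM (adjusted p = 0.344, Fisher's exact test). The tallest summits there held 8 to 18 fragments in COLO320 DM and 4 to 6 in PC3 DM. The direction turned to more COLO320 DM libraries with -log10 q of at least 5 (21.5 points), with lists of equal length (4.86 points) and with an overlap of at least 500 bp (10.4 points). PAN3 (gene ID 255967, chr13:28138193-28295335), a subunit of the PAN2-PAN3 deadenylase that trims mRNA tails, met a peak in 4 of 18 libraries of COLO320 DM, against 10 of 16 of PC3 DM (adjusted p = 0.157, Fisher's exact test). Its tallest summits held 7 to 12 fragments in COLO320 DM and 4 to 7 in PC3 DM.

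Of the 5 members tested, PDX1 and URAD were thus called with peaks in more COLO320 DM libraries and none with peaks in more PC3 DM libraries, whereas 6.99% of all genes tested were called in either direction. In vector libraries alone, peaks met PDX1 in 3 of 3 for COLO320 DM, against 0 of 2 for PC3 DM, and URAD in 3 of 3 against 1 of 2. For CDX2 these counts were 1 of 3 against 0 of 2, for FLT3 1 of 3 against 2 of 2, and for PAN3 1 of 3 against 1 of 2.

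On a fixed grid of 5 kb, 34 of the 100 bins of the window could be tested and 24 were called, all with peaks in more COLO320 DM libraries (Fisher's exact test, largest adjusted p = 0.0343). Over 120164 bins of the genome, 2.88% were called in this direction and 0.598% in the other. The called bins ran from 27805001 to 27985000, and 5 tested bins outside that run were not called. The run was broken: it spans 36 bins, of which 7 could not be tested, among them those starting at 27960001 and 27965001 in CDX2. Other bins inside it were tested and not called. Of the 24, 16 touched PLUT. In 5 bins, every COLO320 DM library had a peak and no PC3 DM library did. They started at 27805001 in no gene, 27885001 and 27905001 in PLUT, 27935001 in no gene and 27980001 in URAD. The bin with the greatest covered length, 27945001 to 27950000, had 2022 ± 218 bp in COLO320 DM and 24.8 ± 67.9 bp in PC3 DM.

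**Figure D2:**
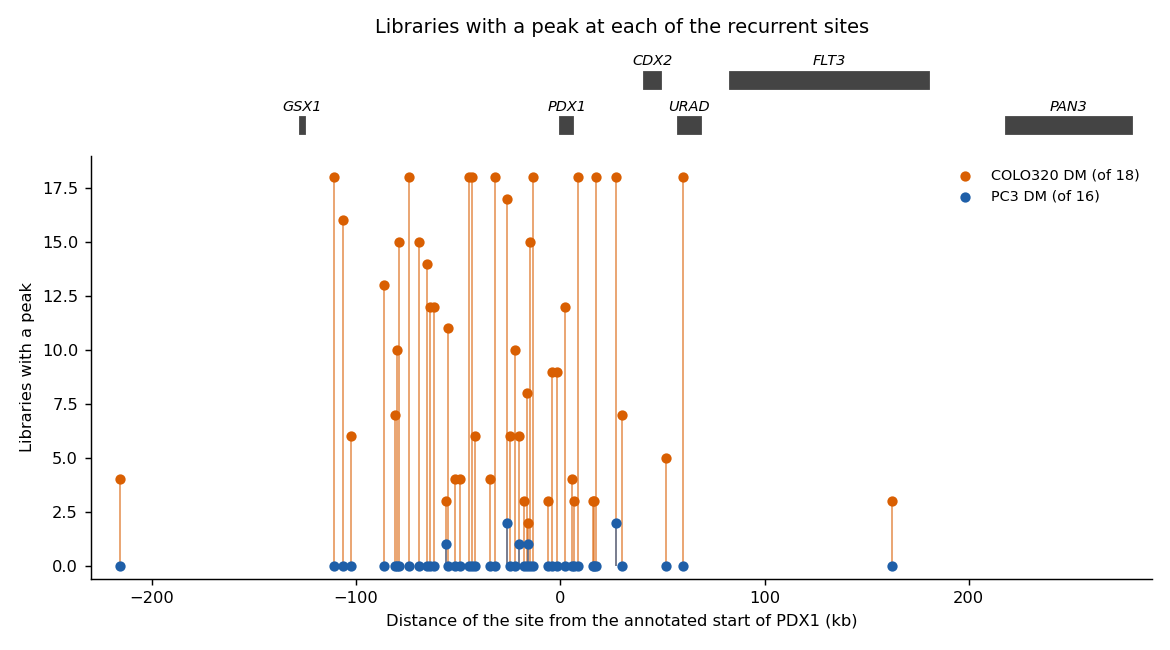
Number of libraries with a peak at each of the 46 recurrent sites, against distance from the annotated start of PDX1 in kb, COLO320 DM in orange (of 18) and PC3 DM in blue (of 16). Of the 46 sites, 10 reach all 18 COLO320 DM libraries, and no site has more than 2 PC3 DM libraries.

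Runs of bases covered in at least 3 lists gave 46 recurrent sites, 23 to 2643 bp long. Of these, 29 lay in PLUT, 7 met a member region and 13 were intergenic. Of the 46, 10 were found in all 18 COLO320 DM libraries, 5 in any PC3 DM library and 0 in more PC3 DM than COLO320 DM libraries. The sites were defined from these lists, so their counts are a description.

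The 5 intergenic sites with the most libraries lay on both sides of PDX1. The site at 27946024 to 27948227 was found in 18 COLO320 DM and 2 PC3 DM libraries. Its COLO320 DM peaks had a median summit of 263.5 fragments and a fold of 3.88 to 5.49, and the best of them ranked 46 by q-value in its list. PC3 DM summits between 27940001 and 27950000 held at most 9 fragments. The sites at 27807851 to 27810493, where the dense run begins, at 27937098 to 27938021 and at 27927790 to 27929322, beside PDX1, were each found in 18 COLO320 DM and 0 PC3 DM libraries. The site at 27812854 to 27814004 was found in 16 and 0. The highest COLO320 DM fold of the neighbourhood stood inside PLUT, at 27876185 to 27877002, a site named after its values were seen. There all 18 COLO320 DM lists had a fold of 6.35 to 10.8 and a median summit of 268.5 fragments, with a best rank of 25.

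**Figure D3:**
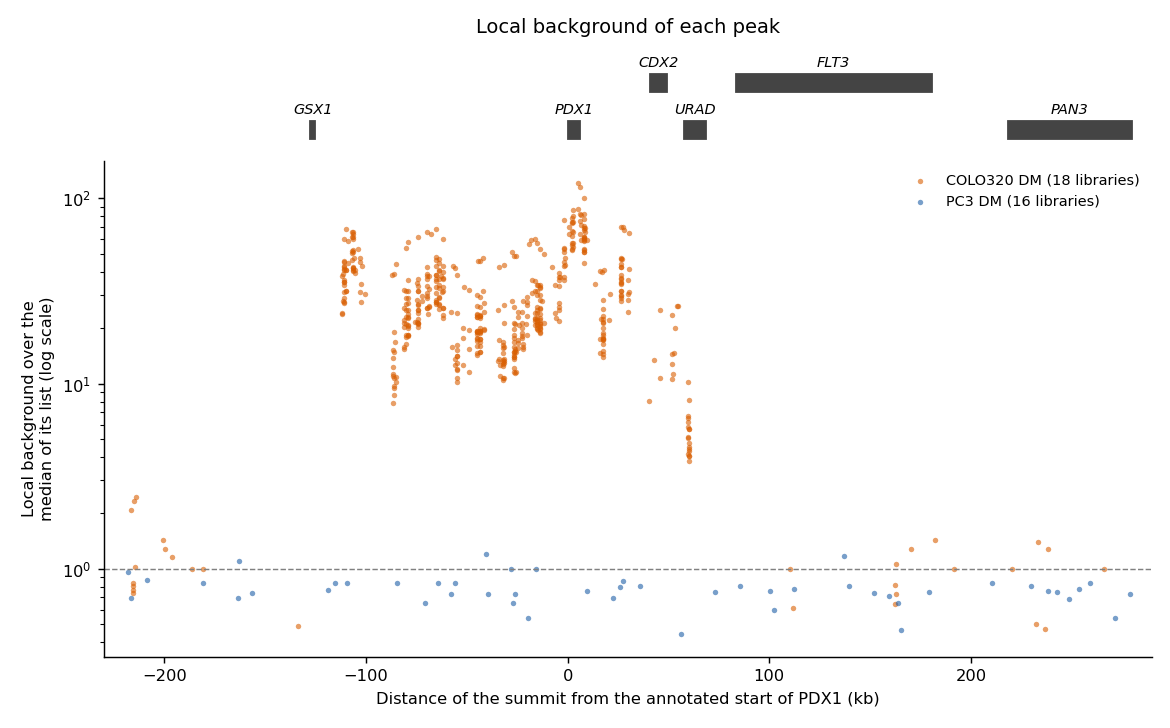
Local background of every peak in the window divided by the median of its own list (log scale), against the distance of its summit from the annotated start of PDX1 in kb, for 18 COLO320 DM libraries (orange) and 16 PC3 DM libraries (blue). Dashed line, ratio of 1. The tallest peak at PDX1 in each COLO320 DM library has a ratio of 44.6 to 116, while the tallest at FLT3 lie between 0.611 and 1.42 in COLO320 DM and between 0.469 and 1.17 in PC3 DM.

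The local background moved with the difference between the lines. The median local background of the window's peaks was 18.02 to 43.6 times the median of the list in COLO320 DM and 0.456 to 0.850 times in the 14 PC3 DM lists with a peak there. In COLO320 DM, 17 to 46 peaks per list had at least 10 times the median background of their list, and in PC3 DM 0 in every list. The lower edge of the stretch of these raised peaks varied little between lists. The first of them began between 27807851 and 27808951 in all 18 lists, a spread of 1100 bp. How steeply the background changes there cannot be seen, since no COLO320 DM summit lay between 27790001 and 27800000. The upper edge varied, with the last raised peak ending between 27947944 and 27980476. Only ecSE1 replicate 2, the longest list, had its last raised peak inside URAD, and without it the latest end was 27973144, which lies before URAD. The URAD peaks had at most 10.2 times the list median. From the earliest start to the latest end of all 18 lists the stretch is 172.626 kb long and holds PDX1 and CDX2 whole. Its reach over CDX2 rests on a part of the lists. Over the 18 lists the median end of the last raised peak was 27950349.5, before CDX2 starts at 27960918. GSX1, FLT3 and PAN3 lie outside it.

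Within 1.5 Mb on either side of the window, the median background of COLO320 DM peaks was 1.04 to 1.64 times the median of their list. These are medians per list, and in the window of 100 kb starting at 28800001 the median ratio over 17 libraries was 1.96. Of 552 COLO320 DM peaks in the window, 523 lay in the stretch. Outside it lay 29, of which 16 were in ecSE1 replicate 2. The bounds of the stretch were drawn from raised peaks of these same lists, so these counts are a description. They take the upper end from ecSE1 replicate 2, and with the end at 27973144 the URAD peaks would lie outside. The background was highest at PDX1 itself: between 27920001 and 27930000 its median over COLO320 DM peaks was 111 fragments, or 62.8 times the list median, and it was 9.47 times between 27970001 and 27980000. Among 3697 windows of 100 kb with enough COLO320 DM peaks to compare, those starting at 27900001 and 27800001 ranked 20 and 22 by this ratio, at 26.7 and 22.3, where the median window had 1.54. Of the 22 highest, 15 were on chromosome 8, 4 on chromosome 16, 2 on chromosome 13 and 1 on chromosome 15. Within 2 Mb of MYC the ratio was 35.9 to 106 in COLO320 DM and 1.07 to 5.58 in PC3 DM.

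Copy number was not measured in these files. A local background of this kind rises with the number of DNA copies and, if it came from the same library, with the amount of mark over the stretch. These cannot be told apart here. Their part in the difference between the lines at PDX1 and URAD was not tested. Peaks covered 5.43% to 13.8% of the stretch. Their median fold was 2.37 to 3.07, against a median fold of 5.19 to 5.87 over the same lists. Over a high background a peak passes a given q-value at a lower fold, and the lowest fold in the stretch was 1.59 to 2.05 per list. These folds are therefore not compared at like backgrounds.

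**Figure D4:**
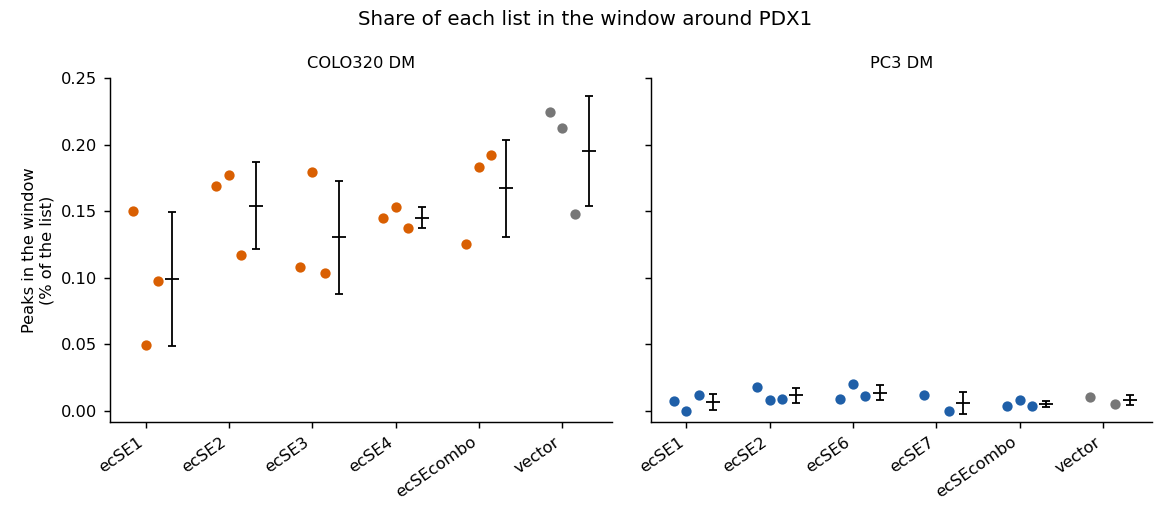
Peaks in the window around PDX1 as a percentage of each list, by group, COLO320 DM on the left and PC3 DM on the right. Points are libraries, bars are mean ± SD, and the vector libraries are grey. The perturbed COLO320 DM libraries lie between 0.0495% and 0.193%, the vector libraries between 0.148% and 0.225%.

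In COLO320 DM the perturbations were then compared with the vector. Perturbed libraries had 0.139% ± 0.0394 of their peaks in the window (SD, n = 15), and vector libraries 0.195% ± 0.0414 (SD, n = 3). The groups overlapped. The difference was -0.0558 points (exact permutation p = 0.0453, adjusted p = 0.159 over the 7 tests of this share), so it did not pass after adjustment. The number of peaks in the window was 30.6 ± 10.1 in perturbed and 31.0 ± 9.54 in vector libraries (exact permutation p = 0.968). Lists averaged 27198 peaks in perturbed and 16736 in vector libraries, and across the 18 libraries the share was lower in longer lists (Spearman's rho -0.81, a description, since the length divides the share). The part of list length was not tested beyond lists cut to equal length, where the difference was -0.0540 points (exact permutation p = 0.0772). Without vector replicate 1 it was -0.0411 points (exact permutation p = 0.199).

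Single perturbations had window shares of 0.0992% ± 0.0504 with ecSE1, 0.154% ± 0.0327 with ecSE2, 0.130% ± 0.0424 with ecSE3, 0.145% ± 0.00792 with ecSE4 and 0.167% ± 0.0361 with ecSEcombo (SD, n = 3 each). All 5 means were below the vector mean. The differences from the vector were -0.0960, -0.0409, -0.0647, -0.0498 and -0.0279 points in that order (exact permutation p = 0.2, 0.3, 0.2, 0.2 and 0.5), where 3 libraries against 3 cannot go below 0.1.

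**Figure D5:**
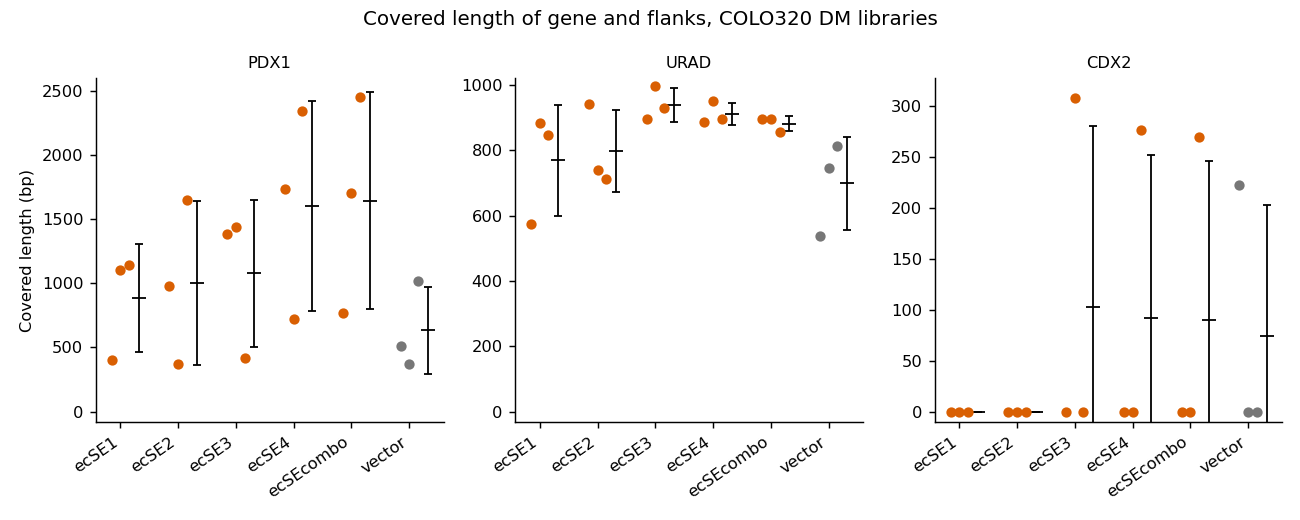
Length covered by peaks in PDX1, URAD and CDX2 with 2 kb on either side, in bp, for the 18 COLO320 DM libraries by group. Points are libraries, bars are mean ± SD (n = 3), and the vector libraries are grey. At URAD the ecSE3, ecSE4 and ecSEcombo libraries, at 855 to 997 bp, all lie above the vector libraries, at 539 to 813 bp, as they do in 5.48%, 7.27% and 1.64% of 5749 genes in that order.

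At PDX1, peaks covered 401, 1104 and 1146 bp with ecSE1, 979, 375 and 1649 bp with ecSE2, 1381, 1438 and 418 bp with ecSE3, 1732, 722 and 2342 bp with ecSE4, 767, 1703 and 2454 bp with ecSEcombo, and 512, 373 and 1014 bp with the vector. Each perturbation overlapped the vector libraries. Perturbed libraries averaged 1241 ± 659 bp (n = 15) and vector libraries 633 ± 337 bp (n = 3), a difference of 608 bp (exact permutation p = 0.148, adjusted p = 1.00 over 5749 genes). By mean the order was ecSEcombo (1641 bp), ecSE4 (1599 bp), ecSE3 (1079 bp), ecSE2 (1001 bp), ecSE1 (884 bp) and vector, and neighbours in that order differed by less than their SDs of 337 to 845 bp. Covered length at PDX1 also followed list length to some extent (Spearman's rho 0.50 over 18 libraries, a description).

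At URAD, peaks covered 575, 885 and 848 bp with ecSE1, 941, 740 and 712 bp with ecSE2, 895, 997 and 928 bp with ecSE3, 888, 950 and 895 bp with ecSE4, 895, 895 and 855 bp with ecSEcombo, and 539, 745 and 813 bp with the vector. The ecSE3, ecSE4 and ecSEcombo libraries did not overlap the vector libraries, by 241, 212 and 183 bp of mean difference (exact permutation p = 0.1 each, the smallest possible). Over the 5749 genes tested, all perturbed libraries lay above all vector libraries in 5.51% with ecSE1, 3.37% with ecSE2, 5.48% with ecSE3, 7.27% with ecSE4 and 1.64% with ecSEcombo. Over the 635 genes with a peak in every COLO320 DM library, as URAD has, these shares were 7.4%, 8.03%, 14.6%, 19.4% and 2.83% in that order. Perturbed libraries together averaged 860 ± 108 bp (n = 15) and vector libraries 699 ± 143 bp (n = 3), a difference of 161 bp (exact permutation p = 0.0294, adjusted p = 1.00 over 5749 genes). It was 80.9 bp without vector replicate 1 (exact permutation p = 0.287) and 102 bp with lists of equal length (exact permutation p = 0.460). Cutting the lists to 9385 peaks removed the URAD peak of ecSE1 replicate 2, which ranked 15304 in its list. Over all those genes 0% were called in either direction, and 2.17% had an unadjusted exact permutation p under 0.05.

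At CDX2, perturbed libraries averaged 57.0 ± 118 bp and vector libraries 74.3 ± 129 bp (exact permutation, adjusted p = 1). FLT3 averaged 138 ± 214 bp and 177 ± 307 bp, and PAN3 132 ± 364 bp and 107 ± 185 bp, in perturbed and vector libraries. GSX1 was covered in no library.

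Among genes related to the members by family, position or tissue, 1 gene was called, with peaks in more PC3 DM libraries, the direction of 5.74% of all genes tested. Of the other ParaHox genes, 1 of 3 could be tested and 0 were called. Of 13 neighbours on 13q12-q13, 7 could be tested and 0 were called in either direction, among them LNX2 (2 of 18 libraries of COLO320 DM, against 4 of 16 of PC3 DM), POLR1D (7 against 5) and FLT1 (10 against 9) beside the window. Of 25 gut and pancreas transcription factors, 12 could be tested and 1 was called, with peaks in more PC3 DM libraries: GATA4, a transcription factor of the endoderm, in 0 of 18 libraries of COLO320 DM, against 7 of 16 of PC3 DM (adjusted p = 0.0364, Fisher's exact test). Of 39 HOX cluster genes, 7 could be tested and 0 were called. The median difference, COLO320 DM minus PC3 DM, was -1.39, -0.69, -10.4 and -2.78 points in these lists in turn, beside -15.97 points over all genes tested. Between perturbed and vector libraries of COLO320 DM, 0 genes of any of these lists were called by covered length.

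Presence of a peak across the 34 libraries was the same for POU5F1B, a POU5F1 retrogene on chromosome 8, as for PDX1. It differed in 1 library for EEF1A1, a translation elongation factor, ELAC1, a tRNA-processing nuclease, EPS8L3 and KIAA1614, and RDH16 tied with these. By covered length over the 18 COLO320 DM libraries, the genes most like PDX1 were RAB3IP (Spearman's rho 0.89), NAT1 (0.84), ZNF727 (0.84), FBRSL1 (0.80) and ZNF678 (0.80). These points share list length, and the likeness is a description.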

How the data were processed

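Processed data were 34 peak lists, 1 per library, in hg38 coordinates. The submitters' processing notes name MACS2 2.2.7.1, Bowtie2 2.3.5, bedtools, SAMtools and Trim Galore 0.6.6, without roles. The names of the deposited lists give an FDR of 0.001 and removal of blacklisted regions. The sources used here do not say whether peaks were called against a control library.

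The deposited score of each peak was not used. The deposited fold is the authors' ratio of summit to local background, and the deposited -log10 p-value and -log10 q-value are the authors' own. They describe, rank and filter peaks within a list. The deposited summit offset (other unit) gave summit positions. Whole summit fragments and the local background were recovered from fold and p in 100% of peaks of every list, at a tolerance of 0.0005 in -log10 p.

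Genes came from RefSeq (GRCh38.p14). Presence per gene and per 5 kb bin was compared with Fisher's exact test where at least 3 libraries had and 3 lacked a peak, window shares with permutation of libraries, and covered length with all 816 splits of 15 against 3 libraries. Benjamini-Hochberg adjustment ran over all features tested, at 0.05. The members, the context lists and the rule for named genes (the 6 members, list members that pass or lie beside the window, the 5 intergenic sites with the most libraries, the 5 genes most like PDX1) were chosen with earlier results of these data known. Scripts were tested on simulated data. Alternatives were a stricter q-value, equal list lengths, other overlaps, flanks, bins and windows, libraries left out and tests within replicate numbers. Tests ran in scipy 1.17.1 under Python 3.11.15, with pandas 2.3.3 and numpy 2.4.6, and figures in matplotlib 3.10.9.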

Additional observations from a re-analysis of the deposited data

Results flagged for a closer look

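The effect of perturbation on the share of peaks in the window differed between the lines by a test of the difference itself. Perturbed minus vector was -0.0558 points in COLO320 DM and 0.000712 points in PC3 DM, a difference of -0.0566 points (permutation within lines, p = 0.0431). PC3 DM shares were 0% to 0.0203%, so a fall of that size in points could not occur in PC3 DM, and the difference is close to the COLO320 DM effect alone. The effect within COLO320 DM did not pass after adjustment. Lists averaged 27198 peaks in perturbed and 16736 in vector libraries of COLO320 DM, and the part of list length in the difference between lines was not tested.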

How the results depend on the processing

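The calls at PDX1 and URAD, and a share of peaks in the window higher in COLO320 DM, kept their direction in every alternative run, and passed in each except the vector libraries alone (0.187 points, exact permutation p = 0.1), which also left no gene or bin to test. The 24 called bins of the window were 16 to 24 in the alternatives. Genes called with peaks in more COLO320 DM libraries numbered 126, against 283 with -log10 q of at least 5, 322 with lists of equal length, 248 with an overlap of 500 bp and 81 with no filter. Those called in more PC3 DM libraries numbered 578, against 181, 305, 300 and 335 in that order and 972 without the lists of over 100000 peaks, and 385 to 1321 with 1 library left out. Bins called in more PC3 DM libraries numbered 718, against 288 with an overlap of 500 bp, 444 with no filter and 723 to 1098 with 1 library left out.

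The difference in window share between perturbed and vector libraries of COLO320 DM was -0.0540 points with lists of equal length (exact permutation p = 0.0772), -0.0632 by covered base pairs (p = 0.0760 by exact permutation) and -0.0558 with a replicate block (exact permutation p = 0.0787), and -0.0795 to -0.0411 with 1 library left out. It missed an unadjusted 0.05 without vector replicate 1 or 2, ecSE1 replicate 1 or 3, ecSE2 replicate 3, ecSE3 replicate 1 or 3, any ecSE4 replicate or ecSEcombo replicate 1. Whether replicate numbers pair libraries is not known. Same-numbered pairs correlated above 0.1 in 0 of 45 cases for COLO320 DM and 0 of 36 for PC3 DM. Pairs with other numbers did so in 1 of 90 and 2 of 70, too few to tell the 2 kinds of pair apart. The block changed no other call.

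Covered length per perturbation, never called, turned sign in some alternatives, at URAD too, which has a peak in every full COLO320 DM list. Cutting the lists to 9385 peaks removed the URAD peak of ecSE1 replicate 2, which ranked 15304 in its list. The cause of the other changes of sign was not tested. With lists of equal length the difference from the vector was -74.3 bp for CDX2 with ecSE3, ecSE4 and ecSEcombo. It was -225 for URAD and -107 for PAN3 with ecSE1, and 106 and 156 for FLT3 with ecSE3 and ecSEcombo. With -log10 q of at least 5 it was -74.3 for CDX2 with ecSE3, and -57.7 for FLT3 and -107 for PAN3 with ecSE1. Without flanks it was -74.3 for CDX2 with ecSEcombo, and without the long lists -61.3 for FLT3 with ecSE1 and -65.5 for PAN3 in all perturbed libraries. FLT3 presence turned to 21.5, 4.86 and 10.4 points, as given above. With 1 library left out, all perturbed minus vector ran from -54.5 to 57.0 bp for CDX2, -128 to 138 for FLT3 and -65.5 to 132 for PAN3. Per perturbation it ran from -74.3 to 103, 92.3 and 90.0 for CDX2 with ecSE3, ecSE4 and ecSEcombo, -61.3 to 255 for FLT3 with ecSE1, -177 to 173, 106 and 156 for FLT3 with ecSE2, ecSE3 and ecSEcombo, -107 to 92.0 for PAN3 with ecSE4, and -9.67 to 168 for URAD with ecSE1. Depth is unknown, so a gene without a peak is not shown to lack the mark.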
